A study of Mus musculus with 14 samples.

Results

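The cytosolic ribosomal protein genes were taken as every row of the counts table named Rpl or Rps with a number and at most a short suffix, together with Rplp0, Rplp1, Rplp2 and Rpsa. This gave 89 of 35328 genes: 50 of the large subunit, 36 of the small subunit and the 3 stalk genes Rplp0, Rplp1 and Rplp2. All 89 matched a RefSeq gene by symbol, and 5 of them (Rps4l, Rps12l1, Rpl6l, Rps3a2 and Rps3a3) are annotated there as pseudogenes. The low-count filter kept 88 members, and Rpl6l did not pass it.

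Polyadenylated RNA of neck skin was sequenced from C57BL/6J mice labelled female, in 14 libraries of 5 groups. MAR1 mice (3 libraries, 6 weeks old) received 20 µg of the antibody MAR1, which binds the high-affinity IgE receptor that basophils and mast cells carry, intraperitoneally on alternate days. After 3 injections, 1 nmol of MC903 in 100 µL, calcipotriol, which is chemically related to vitamin D and brings on type 2 inflammation in mouse skin, was put on the shaved neck daily for 6 days. Isotype mice (3 libraries, 6 weeks) received the control antibody and the same MC903 course. The cKO group (3 libraries, 6 to 7 weeks) carried Pdgfra-Cre with Il4ra fl/fl, so that the IL-4 receptor alpha gene is deleted in cells of the Pdgfra lineage, mainly fibroblasts, and not in the whole skin. The flfl group (3 libraries, 6 to 7 weeks) carried the Il4ra fl/fl alleles without Cre, and both genotypes received MC903 for 6 days with no injection. Untreated mice (2 libraries, 6 weeks) were wild type. Their labels do not say if they had vehicle, and both library names carry the same number, so they may come from 1 mouse. The questions asked here are whether ribosomal protein mRNAs differ with the antibody, with the receptor deletion and with MC903.

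A cytosolic ribosome holds 1 copy of most of its proteins, and in mouse tissues most of these proteins come from single housekeeping genes. Their mRNAs are among the most abundant in any cell and are known for moving together. Many begin with a run of pyrimidines (the 5′ terminal oligopyrimidine, or TOP, motif) through which mTOR and Larp1 control their translation. A few members are paralogs with narrow expression, such as Rpl3l in striated muscle and Rpl10l in testis. In skin, ribosome content is known to follow growth and division of keratinocytes and activation of immune cells.

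Library totals, with M for mega, were 10.6, 8.74 and 5.78 M counts in MAR1, 34.9, 35.6 and 34.3 M in isotype, 25.9, 30.8 and 16.5 M in cKO, 47.2, 48.0 and 45.1 M in flfl, and 55.3 and 37.5 M in untreated skin. The members together held 0.358 to 7.79 M counts per library, so counting error is small for the abundant ones. Il4ra averaged 50.9 ± 31.6 CPM (normalised read count relative to TMM library size) in cKO and 178 ± 34.5 CPM in flfl libraries (SD, n = 3 each). It was also low without the deletion, at 26.0 ± 18.5 CPM in MAR1 and 189 ± 9.15 CPM in isotype libraries (SD, n = 3 each), and the lowest cKO value was 14.5 CPM in library 3, so its level is no clear check of the deletion. The basophil protease gene Mcpt8 averaged 25.5 ± 6.76 CPM in the libraries labelled MAR1 and 5.02 ± 1.47 CPM in isotype libraries (SD, n = 3 each). It was thus higher under an antibody that is used to deplete basophils, so the label does not match this gene, and every direction given for MAR1 rests on the label. Other libraries also stood apart. Ddx3y and Eif2s3y, which are Y-linked, were at 69.8 and 53.3 CPM in cKO library 1, and the salivary gene Bpifa2 was at 731 and 10923 CPM in flfl libraries 1 and 2. Chemosensory receptor genes, which skin is not known to express highly, took 3.84%, 7.44% and 9.22% of counts in MAR1 libraries and 0.435%, 0.267% and 0.397% in isotype libraries. The share was 1.47%, 0.464% and 2.56% in cKO, 0.0761%, 0.0477% and 0.0493% in flfl, and 0.0484% and 0.275% in untreated libraries. The labelled tissue was checked with 11 keratinocyte genes, which took 0.529% to 0.945% of counts in MAR1, 2.29% to 4.03% in isotype, 2.23% to 3.79% in cKO, 0.482% to 3.42% in flfl and 1.04% to 2.56% in untreated libraries.

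The 30 bases around the annotated start of 8 members are shown because these are the genes on which the comparisons turn: 3 that were lower in the libraries labelled MAR1 (Rpl15, Rpl4, Rps7), 3 that were higher (Rpl37a, Rplp2, Rps21), and the paralogs Rpl3l and Rpl10l. They run 5′ to 3′ on the gene's strand from 10 bases before the start, and come from RefSeq on GRCm38.p6. Capitals mark a TOP-like run, meaning a C followed by at least 4 C or T on that strand, beginning within 5 bases of the start.
Rpl15 (chr14:18270967-18270996, minus strand): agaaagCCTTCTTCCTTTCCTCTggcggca
Rpl4 (chr9:64173377-64173406, plus strand): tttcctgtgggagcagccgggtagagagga
Rps7 (chr12:28635934-28635963, minus strand): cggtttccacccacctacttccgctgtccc
Rpl37a (chr1:72711250-72711279, plus strand): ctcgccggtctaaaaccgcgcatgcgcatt
Rplp2 (chr7:141447641-141447670, plus strand): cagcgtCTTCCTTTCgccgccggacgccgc
Rps21 (chr2:180257369-180257398, plus strand): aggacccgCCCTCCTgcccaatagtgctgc
Rpl3l (chr17:24727816-24727845, plus strand): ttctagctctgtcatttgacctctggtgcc
Rpl10l (chr12:66284382-66284411, minus strand): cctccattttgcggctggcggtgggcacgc

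A run was found in 29 of the 64 members that have a RefSeq promoter entry (45.3%), and in 4989 of 27025 genes with an entry (18.5%). Runs stood both among members that were lower in MAR1 than in isotype libraries (Rpl15, with 17 bases) and among members that were higher (Rplp2 with 9 bases, Rps21 with 7). Of the members with an entry that were called in that comparison, 12 of 26 lower ones and 4 of 7 higher ones held a run. A match describes the letters only, and the annotated start may not be the one used in skin.

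Summed over all members, ribosomal protein genes took 12.1%, 7.75% and 6.20% of counts in MAR1, 9.67%, 7.73% and 8.05% in isotype, 12.3%, 9.91% and 13.4% in cKO, 16.5%, 10.04% and 10.4% in flfl, and 7.79% and 7.28% in untreated libraries. The MAR1 libraries spread on both sides of the isotype ones, and the cKO and flfl ranges overlapped. The mean was 8.67% ± 3.04 in MAR1 and 8.49% ± 1.04 in isotype skin (SD, n = 3 each, exact permutation test, two-sided, p = 0.9). It was 11.9% ± 1.78 in cKO and 12.3% ± 3.62 in flfl skin (SD, n = 3 each, exact permutation p = 0.8). The share was thus not shown to differ in either comparison. The MAR1 minus isotype difference of 0.182 percentage points became -1.51 without MAR1 library 1, -0.197 without isotype library 2 and -0.0342 without isotype library 3. The cKO minus flfl difference of -0.440 points became 0.538 without cKO library 2 and 1.65 without flfl library 1. Against the untreated mean of 7.53% ± 0.360 (n = 2), the isotype mean gave an exact permutation p of 0.5 and the flfl mean a p of 0.3. The 3 flfl libraries were all above the 3 isotype libraries (10.04% against 9.67% at the nearest), with an exact permutation p of 0.1, the smallest that 3 against 3 libraries allow. In whole skin, a lower share from fewer cells of a type and one from less RNA per cell cannot be told apart.

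**Figure D1:**
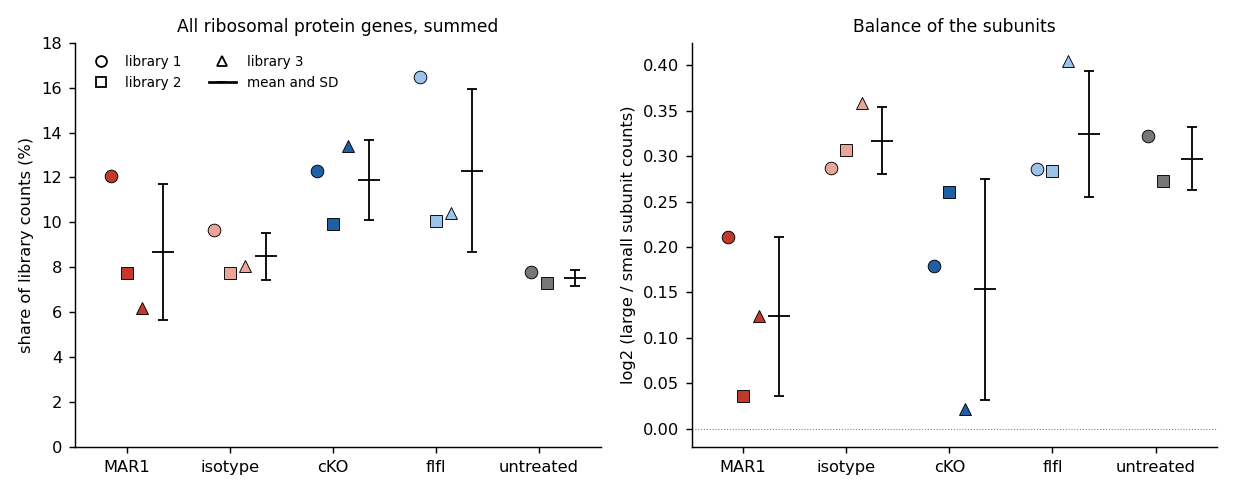
Left, counts on all 89 ribosomal protein genes as a percentage of each library's counts. Right, the log2 ratio of summed large subunit counts, stalk genes included, to summed small subunit counts. Each symbol is 1 library and the bars are mean and SD. The summed shares of the MAR1 libraries run from 6.20% to 12.1%, around the isotype libraries, while the subunit ratios of the MAR1 and cKO libraries are all below those of isotype and flfl.

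For the subunit ratios, the stalk genes Rplp0, Rplp1 and Rplp2 were counted with the large subunit, and no ratio was made without them. The balance of summed large and small subunit counts was lower in every MAR1 than in every isotype library, and in every cKO than in every flfl library. The log2 ratio of large to small subunit counts was 0.21, 0.035 and 0.12 in MAR1 libraries, against 0.29, 0.31 and 0.36 in isotype libraries. In cKO libraries it was 0.18, 0.26 and 0.021, against 0.29, 0.28 and 0.40 in flfl libraries. The mean difference was -0.19 in MAR1 minus isotype and -0.17 in cKO minus flfl, each with an exact permutation p of 0.1, the smallest possible here. With the median over members in place of the sums, the difference was -0.52 in MAR1 minus isotype (exact permutation p = 0.1), but -0.13 in cKO minus flfl (exact permutation p = 0.8). The ratio averaged 0.30 ± 0.035 in untreated skin (SD, n = 2), and isotype and flfl means were 0.02 and 0.03 above it (exact permutation p = 0.7 and 0.8).

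5 members made up the most counts on average over libraries. Rpsa, a small subunit protein and laminin receptor, averaged 4.51% of all ribosomal protein counts, the stalk genes Rplp1 and Rplp0 4.24% and 3.47%, Rpl13a 3.10% and Rpl41 3.07%. Per kilobase of coding sequence the order among these 5 changed. Rpl41, with 75 coding bases, stood at 41535 CPM per kilobase, Rplp1 at 12232, Rpl13a at 5212, Rpsa at 5160.4 and Rplp0 at 3808. Outside these 5, Rps14 stood at 6315. Reads outside the coding sequence are counted too, so the figure runs high for short coding sequences such as that of Rpl41.

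Single members moved apart strongly in the libraries labelled MAR1. The 60S protein genes Rpl15 and Rpl4 and the 40S protein gene Rps7 were 6.60 to 8.35 times lower than in isotype skin, while Rpl37a was 4.04 times and the stalk gene Rplp2 3.16 times higher. Of the 88 members tested, 9 were higher and 38 lower by edgeR's quasi-likelihood test at a Benjamini-Hochberg adjusted p under 0.05, which is 10.2% and 43.2% of members. Of all genes tested, 22.6% were higher and 26.5% lower. In 15 members (17.0%) all MAR1 libraries were above all isotype libraries and in 39 (44.3%) all were below, beside 32.1% and 36.4% of all genes. The median log2 fold change was -0.64 over members and 0.00 over all genes. By class, 5 large subunit genes were higher and 25 lower of 49, 2 small subunit genes were higher and 12 lower of 36, and of the stalk genes Rplp1 and Rplp2 were higher and Rplp0 lower.

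This split depended on scaling. With RLE scaling, which raised the median of all genes to 0.57, 23 members were higher and 19 lower with a median of -0.09, and 28 of the 47 calls remained in the same direction. All genes were then called higher in 30.3% and lower in 17.4% of cases. Scaling each library to its own ribosomal protein total left 14 higher and 36 lower, 45 of them the same calls, against 24% and 19.2% of all genes, with the median of all genes at 0.22. With the log2 share of chemosensory receptor genes as a covariate, no member was called, and 7 of 88 had an unadjusted p under 0.05. None of the 20940 genes tested was called in that fit either, so the absence of calls is not particular to the members. That share and the group label moved together, and their parts in the result cannot be told apart by this fit.

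**Figure D2:**
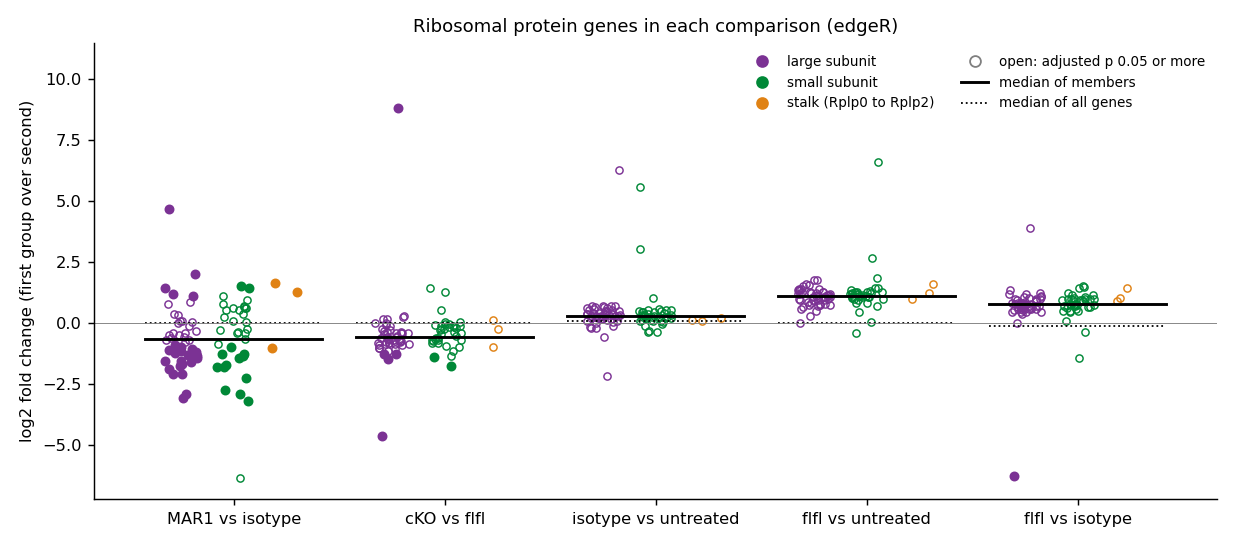
Log2 fold change of each of the 88 tested ribosomal protein genes (first group over second, y axis) in 5 comparisons (x axis), coloured by subunit; filled points passed an adjusted p of 0.05 in edgeR, thick lines mark the median of the members and dotted lines that of all genes. The MAR1 comparison spreads to both sides of 0, whereas in the flfl and untreated comparison 86 of 88 members lie above 0, around a median of 1.13.

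Among the lower members, Rpl15, a large subunit protein, was at 81.8, 77.8 and 63.9 CPM in MAR1 libraries and at 690, 561 and 616 CPM in isotype libraries. Each MAR1 value was below each isotype value by a wide gap. Its log2 fold change was -3.06 (SE 0.45, adjusted p = 0.00031, edgeR). Rpl4, another protein of the large subunit, stood at 359, 258 and 170.5 CPM in MAR1 and 1900.1, 2079 and 1873 CPM in isotype libraries, with a log2 fold change of -2.89 (SE 0.43, adjusted p = 0.00033, edgeR). Rps7, which acts in small subunit assembly, read 271, 245 and 155 CPM in MAR1 and 1737, 1322 and 1369 CPM in isotype libraries. Both groups were again well apart for Rpl4 and Rps7. Rps4l, annotated as a transcribed pseudogene, was at 5.57, 4.32 and 2.40 CPM in MAR1 and 31.8, 35.6 and 46.2 CPM in isotype libraries (log2 fold change -3.19, SE 0.49). Reads of Rps4l may be shared with its near-identical parent, so its value is uncertain.

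Rpl37a, Rplp2, Rps21 and Rps27a were among the higher members. Rpl37a, a small zinc finger protein of the large subunit, was at 4926, 1976 and 1962 CPM in MAR1 libraries and at 835, 684 and 673 CPM in isotype libraries. All 3 MAR1 libraries were higher, the first by far, and the log2 fold change was 2.02 (SE 0.57, adjusted p = 0.010, edgeR). Rplp2, one of the acidic stalk proteins that recruit translation factors, stood at 3439, 1764 and 1671 CPM in MAR1 and 867, 635 and 672 CPM in isotype libraries, with a log2 fold change of 1.66 (SE 0.49, adjusted p = 0.013, edgeR). Its partner Rplp1 had a log2 fold change of 1.28 (SE 0.44, adjusted p = 0.029, edgeR). Rps21 (1.53) and Rps27a (1.42), whose protein is made as a fusion with ubiquitin, rose as well. Rplp0, which anchors the same stalk, went the other way, with 2253, 1522 and 1169.9 CPM in MAR1 and 3416, 3079 and 3386 CPM in isotype libraries (log2 fold change -0.999, adjusted p = 0.032, edgeR). Rpsa had 7210, 4128 and 3076 CPM in MAR1 and 3494, 2902 and 2963 CPM in isotype libraries, and its log2 fold change of 0.62 did not pass (adjusted p = 0.20, edgeR).

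Several of these calls rested on 1 library. Without MAR1 library 1, 2 members were higher and 41 lower, and the number higher was 6, 2 and 3 without isotype libraries 1, 2 and 3. Without MAR1 library 1, Rplp2 (1.25), Rps21 (1.05), Rps27a (1.07) and Rplp1 (0.83) no longer passed. Those of Rplp2, Rps21, Rps27a and Rplp1 were also lost without isotype library 2 (1.57, 1.42, 1.36 and 1.202), and all but that of Rplp2 without isotype library 3 (1.52, 1.33 and 1.22). Rplp1 was further lost without isotype library 1 (1.43). The fall of Rplp0 passed only with MAR1 libraries 2 and 3 and all isotype libraries kept (-0.94, -0.79, -0.97, -1.04 and -0.98 without each in turn). Those of Rpl15, Rpl4, Rps7, Rps4l and the rise of Rpl37a passed without any single library.

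**Figure D3:**
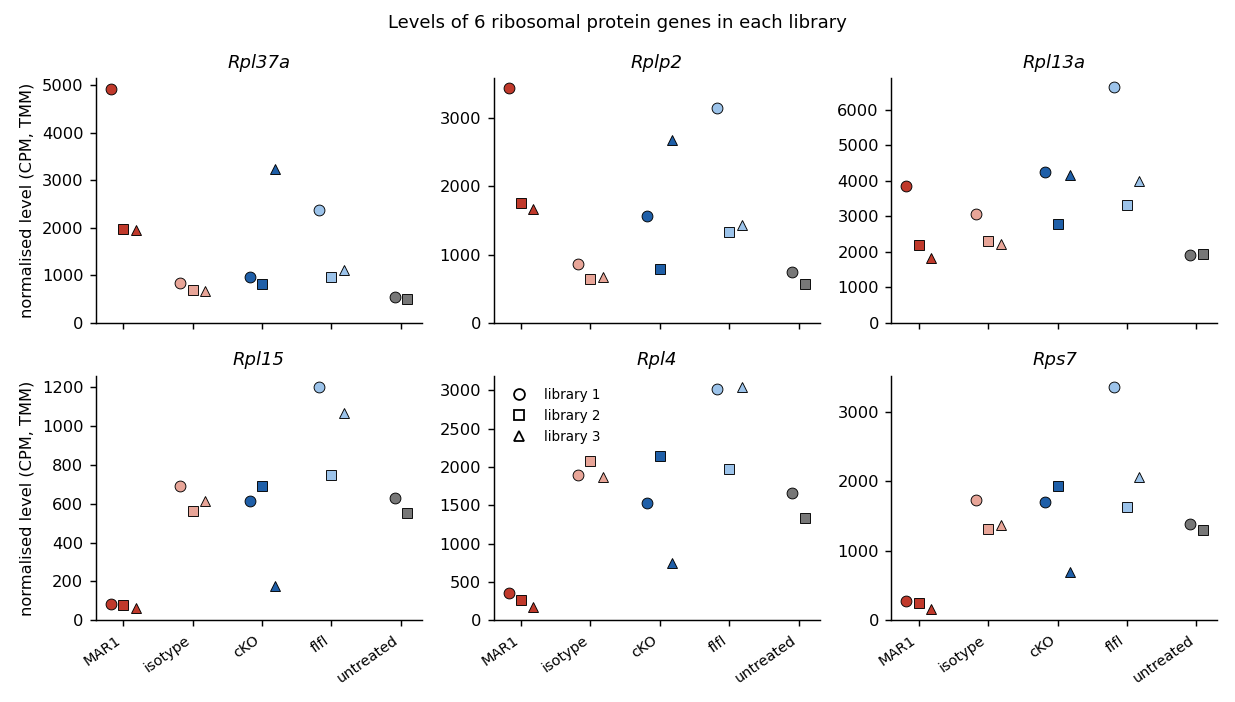
Normalised level (CPM after TMM, linear axes from 0) of 6 members in each of the 14 libraries, with 1 symbol per library. Rpl37a and Rplp2 are highest in MAR1 library 1, Rpl13a overlaps between groups, and Rpl15, Rpl4 and Rps7 are lowest in the 3 MAR1 libraries and next lowest in cKO library 3.

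To do without TMM or RLE factors, each member was also expressed as its share of all ribosomal protein counts in the same library. This is still a scaling to that sum, so a rise of abundant members lowers the shares of the others. Rpl41 alone averaged 5.21% in MAR1 and 2.20% in isotype libraries. Rpl37a made up 4.48%, 2.90% and 3.65% of them in MAR1 and 0.868%, 0.865% and 0.835% in isotype libraries. Rpl15 made up 0.0745%, 0.114% and 0.119% in MAR1 and 0.718%, 0.709% and 0.764% in isotype libraries. Per count of Rpl15 there were thus 60.2, 25.4 and 30.8 counts of Rpl37a in MAR1 libraries, against 1.21, 1.22 and 1.09 in isotype libraries. The same figure, for a pair chosen after its values were seen, was 1.55, 1.19 and 18.6 in cKO, 1.97, 1.30 and 1.05 in flfl, and 0.850 and 0.914 in untreated libraries. MAR1 libraries and cKO library 3 stood far above the other 10.

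For 83 members the share could be followed in each library, since they averaged 10 CPM or more and had counts everywhere. The interquartile range of the log2 change in share against the isotype mean was 2.01, 1.61 and 1.67 in the MAR1 libraries. More than 2-fold higher shares were seen for 10, 9 and 11 members and more than 2-fold lower shares for 31, 24 and 26. Isotype libraries, set against the untreated mean, had interquartile ranges of 0.37, 0.35 and 0.32. The flfl libraries had 0.42, 0.31 and 0.31 against the same untreated mean. In cKO libraries, set against the flfl mean, the ranges were 0.47, 0.49 and 1.33, so that library 3 had by far the widest range of the 3.

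**Figure D4:**
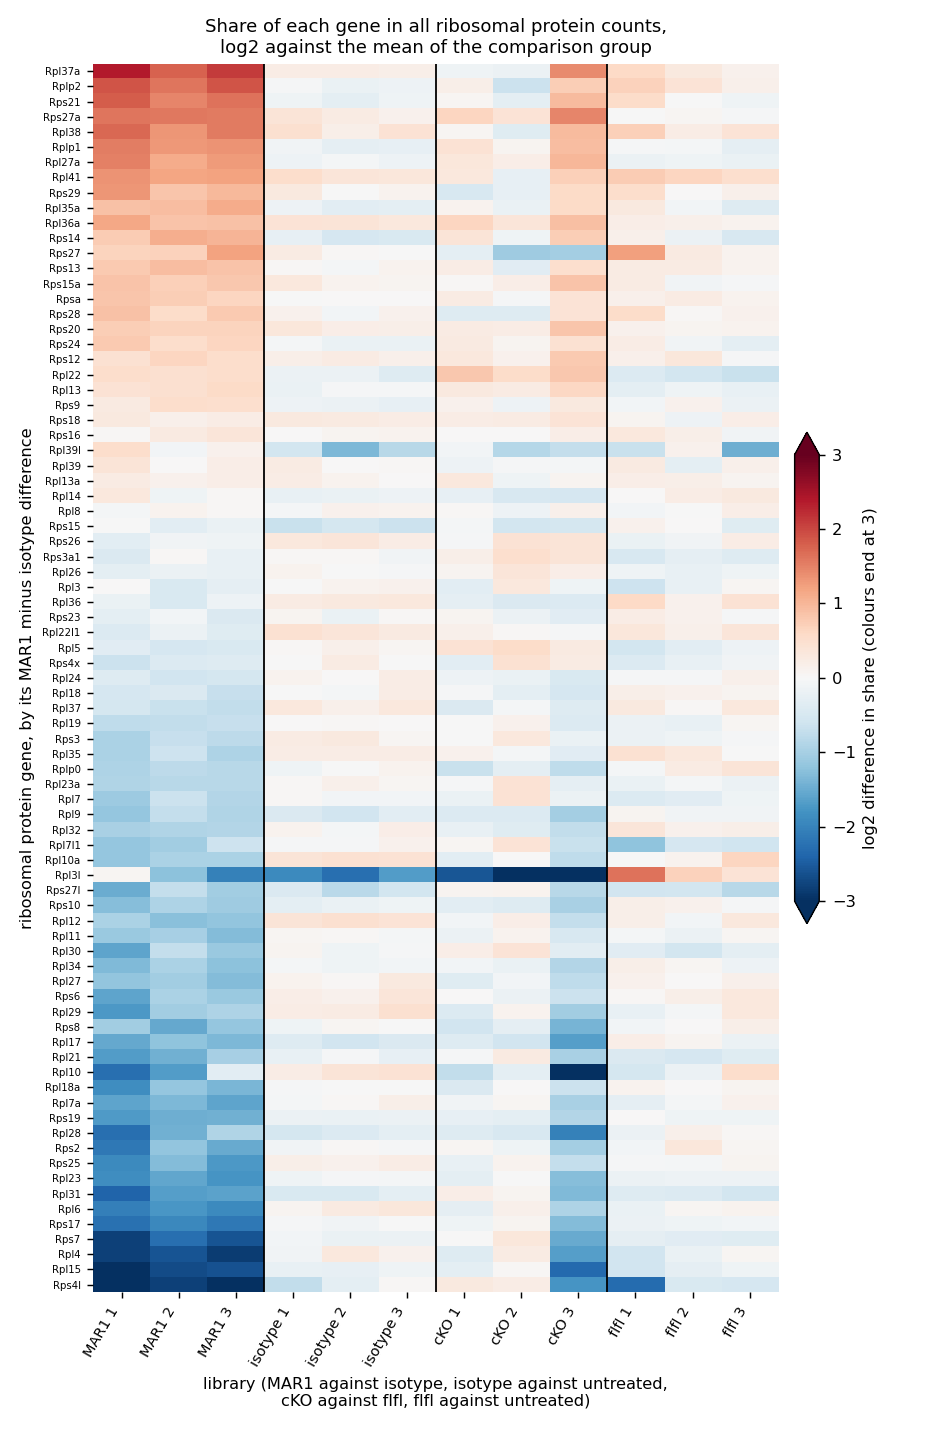
Log2 difference of each member's share of all ribosomal protein counts from the mean of its comparison group, for 81 members (rows, ordered by MAR1 minus isotype) in 12 libraries (columns). The 3 MAR1 columns run from red at the top to blue at the bottom, cKO library 3 shows a paler form of the same order, and the other columns are mostly near white apart from single genes such as Rpl3l.

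The order of members in cKO library 3 resembled that in the MAR1 libraries, with which it shares no library and no control. Across the 83 members, which share their libraries and are not independent, its change in share against flfl had a Pearson r of 0.77 and a Spearman rho of 0.89 with the MAR1 mean minus isotype. For cKO library 1 the values were 0.41 and 0.51, and for cKO library 2 they were 0.02 and -0.06. The libraries with the wide ranges were also low in total counts (5.78 to 16.5 M) and in mitochondrial mRNA, and high in chemosensory receptor genes. The 13 mitochondrial mRNAs took 0.342%, 0.244% and 0.128% of counts in MAR1 libraries, 2.14%, 2.33% and 2.12% in isotype, 1.71%, 2.60% and 0.476% in cKO, 4.18%, 3.31% and 2.28% in flfl, and 2.57% and 4.23% in untreated libraries. The part of depth, receptor genes or mitochondrial mRNA in the changed proportions was not tested.

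In MAR1 libraries, members with short coding sequences mostly had a larger share than in isotype libraries and long ones a smaller share. Across 82 members with a coding length, an average of 10 CPM or more and counts in every library, Spearman's rho between length and the MAR1 minus isotype change in log2 share was -0.42 (Pearson r -0.40), and in the single MAR1 libraries rho was -0.41, -0.44 and -0.43. The relation was not particular to MAR1. Against the untreated mean, rho was -0.50, -0.16 and 0.03 in flfl libraries and -0.26, 0.10 and -0.03 in isotype libraries. In cKO libraries, against the flfl mean, it was -0.19, 0.23 and -0.35. The 11 members of at most 300 coding bases had a median change of 0.86, the 47 of 300 to 600 bases -0.54 and the 24 longer ones -0.86. The spread within a length class stayed large: members of 300 to 600 bases ran from -2.66 to 1.80. Median log2 fold changes were 0.67, -0.67 and -0.99 in the 3 classes, and 4 short members were higher and 1 lower, 4 of the middle class were higher and 23 lower, and none of the longest was higher and 13 were lower. Rpl10l, with 642 coding bases, was also higher but averaged 2.26 CPM and is not among the 82. Other genes above the same level of 10 CPM had median log2 fold changes of -0.09, -0.55 and -0.69 in the same length classes, while rho over those 10492 genes was 0.01. GC content of the whole transcript (rho -0.06) and the share in isotype libraries (rho -0.02) had no such relation. These are descriptions across genes of the same libraries.

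**Figure D5:**
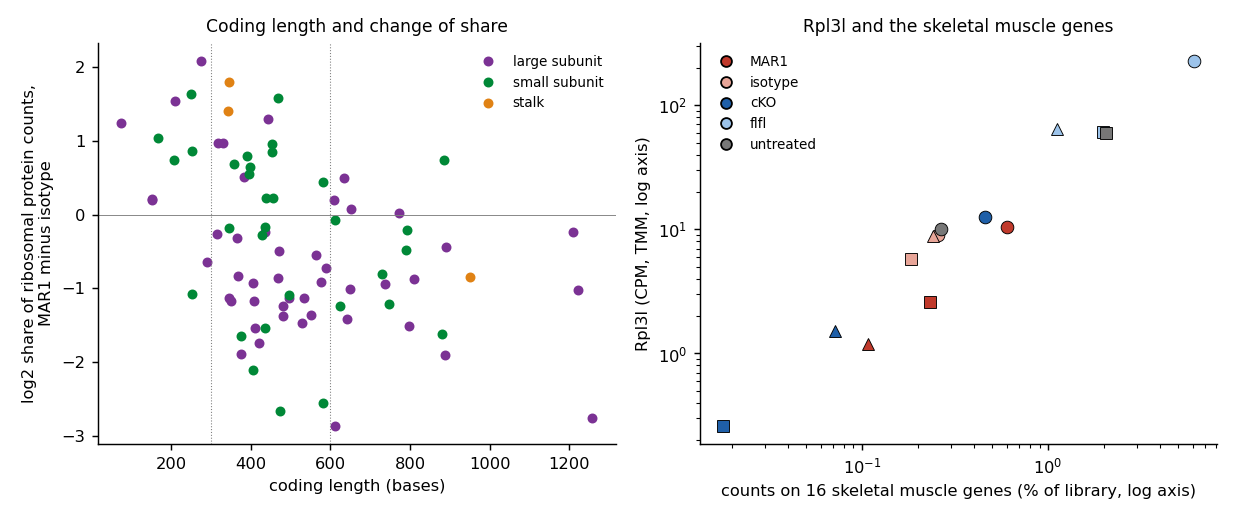
Left, coding length in bases against the MAR1 minus isotype change in log2 share of ribosomal protein counts for 82 members, with dotted lines at 300 and 600 bases; right, Rpl3l in CPM against the percentage of counts on 16 skeletal muscle genes in the 14 libraries, both on log axes. Short members lie mostly above 0 and long ones mostly below, and Rpl3l is high in the same libraries as the muscle genes.

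Some members had a near-constant proportion over the 5 groups. Rpl8, a core protein of the large subunit, made up 1.81% of ribosomal protein counts in MAR1, 1.78% in isotype, 1.77% in cKO, 1.76% in flfl and 1.71% in untreated skin, the smallest spread among members that averaged 10 CPM or more (SD of the log2 group means 0.03). Among the next were Rps16, Rpl26 and Rpl13a, with an SD of 0.11 to 0.12. Rpl13a, a large subunit protein that in human monocytes also takes part in translational silencing, averaged 3.38% in MAR1, 2.96% in isotype, 3.25% in cKO, 3.03% in flfl and 2.74% in untreated skin. Toward the other end stood Rps12l1, Rpl3l, Rps4l and Rpl15. Rps12l1, an annotated pseudogene whose reads may be split with Rps12, had 0 counts in flfl library 2 and untreated library 1 and averaged 0.718% of ribosomal protein counts in MAR1 libraries.

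With the receptor deletion, few members passed the test. Of 88 members, 1 was higher (Rpl10l) and 6 were lower in cKO than in flfl skin, or 1.14% and 6.82%, beside 12.7% and 5.98% of all genes, so the share of lower members was near the background. In 1 member all cKO libraries were above all flfl libraries, beside 17% of all genes, and in 23 members (26.1%) all were below, beside 12.4%. The median log2 fold change was -0.56 over members and 0.03 over all genes. Of the 88 members, 75 had a negative log2 fold change. An unadjusted p under 0.05 in edgeR was found for 25, of which 1 was positive. Scaled to the ribosomal protein total, which moved the median of all genes to 0.37, Rpl10l was higher and Rpl3l lower, and no other member passed (12.8% and 1.7% of all genes). Without cKO library 3, or without flfl library 1, Rpl10l was the single call, and the median became -0.21 and 0.08. DESeq2 called 1 higher and 14 lower (20.2% and 9.67% of all genes).

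Rpl3l, the striated muscle paralog of Rpl3, had the steepest fall. It stood at 12.5, 0.261 and 1.53 CPM in cKO libraries and at 228, 60.5 and 64.5 CPM in flfl libraries, so that the groups did not overlap (log2 fold change -4.62, SE 1.23, adjusted p = 0.022, edgeR). The other groups had 10.4, 2.61 and 1.199 CPM (MAR1), 8.998, 5.78 and 8.77 CPM (isotype) and 10.1 and 59.6 CPM (untreated). Counts on the 16 skeletal muscle genes made up 0.460%, 0.0180% and 0.0713% of the total in cKO and 6.08%, 1.98% and 1.12% in flfl libraries, and 2.05% in untreated library 2. The 4 libraries above 1% muscle were the 4 with the highest Rpl3l. Of the muscle genes, 11 of 16 were lower in cKO than in flfl skin, beside 5.98% of all genes, and their part in the fall of Rpl3l was not tested. Without cKO library 3 or flfl library 1, Rpl3l had log2 fold changes of -3.88 and -3.38 and no longer passed. It also missed the threshold in DESeq2, without the low-count filter and in a fit of cKO and flfl alone.

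Other lower members included Rpl10 (log2 fold change -1.48), which is needed for the final step of large subunit maturation, Rps27 (-1.39), Rpl17 (-1.27) and Rpl28 (-1.25), the last named after its value was seen. Rpl10 was at 92.8, 112 and 22.4 CPM in cKO and 212, 137 and 286 CPM in flfl libraries, and its call was lost without any of the cKO libraries (-1.65, -1.55 and -0.73), flfl library 1 (-1.16) or flfl library 3 (-0.83). Rps27 and Rpl17 were lost without cKO library 2 (-0.82 and -0.95), cKO library 3 (-1.01 and -0.70), flfl library 1 (-0.16 and -0.49) or flfl library 3 (-1.29 and -1.07), and Rpl28 was lost without the same libraries. Lymphocyte markers were lower in cKO too, 7 of 10 B cell and 6 of 10 T cell genes, beside 5.98% of all genes. B cell genes took 0.00349%, 0.00196% and 0.00606% of counts in cKO and 0.197%, 0.0472% and 0.000389% in flfl libraries. The part of these lymphocyte markers was not tested.

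Rpl10l, an intronless copy of Rpl10 that serves in the male germ line of mice, was the most extreme riser and is rare. It stood at 1.97, 8.24 and 14.8 CPM in MAR1 and 0.399, 0.173 and 0.379 CPM in isotype libraries (log2 fold change 4.70, SE 1.12, adjusted p = 0.0060, edgeR). In cKO libraries it was at 2.09, 0.424 and 3.17 CPM, and in all flfl libraries at 0. With a floor of 3 counts per library, it was at least 24.0-fold higher in cKO. It was at 0 in both untreated libraries too, which makes it at least 5.11-fold higher in isotype than in untreated skin and at least 4.01-fold lower in flfl than in isotype skin, the last being the single call among members in that comparison, which was lost without any isotype library or flfl library 1 or 2. Its 5 highest libraries were the 5 with the most chemosensory receptor counts. With that share as a covariate its MAR1 log2 fold change was -1.16, in a fit where no gene was called.

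In MC903-treated mice with isotype antibody, no member passed against untreated skin with edgeR. Of all genes, 1.35% were higher and 1.72% lower there, and 2 of 88 members had an unadjusted p under 0.05. These groups also differ in antibody injections, which cannot be told apart from MC903. DESeq2 called 1 member higher, Rpl10l, beside 6.66% of all genes, and none lower, beside 5.27%. The median log2 fold change was 0.31, against 0.11 over all genes. In 49 members (55.7%) all isotype libraries were above both untreated ones, beside 26.2% of all genes, and in 2 members they were all below, beside 22.6%. Rpl22l1, a paralog of Rpl22, had 259, 197 and 190 CPM in isotype and 121 and 155 CPM in untreated libraries, without passing the test (log2 fold change 0.64).

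Nearly all members were higher in flfl skin after MC903 than in untreated skin, most of them by a similar amount. These groups also differ in Il4ra alleles and age range, which cannot be told apart from MC903. The median log2 fold change against untreated skin was 1.13, beside 0.00 over all genes, 86 of 88 members were positive, and in 78 members (88.6%) all flfl libraries were above both untreated ones, beside 12.6% of all genes. In none were they all below, beside 15.4%. No member passed in edgeR, where 0.769% of all genes were higher and 0.95% lower, although 63 had an unadjusted p under 0.05, and DESeq2 called 51 higher and none lower, beside 4.96% and 5.63% of all genes. Scaling to their own total holds the members' median close to no change by design. It was then 0.03, and that of all genes was -0.996. Over 83 members, the interquartile range of the log2 change in share against the untreated mean was 0.42, 0.31 and 0.31 in the flfl libraries. Rpl13a was at 6640.5, 3304 and 3993 CPM in flfl and 1906 and 1928 CPM in untreated libraries (log2 fold change 1.28, adjusted p = 0.15, edgeR). Rplp0 was at 7959, 4956 and 7106 CPM in flfl and 3606 and 2089 CPM in untreated libraries. With the 2 untreated libraries summed into 1, since they may share a mouse, the median was 0.80, beside -0.28 over all genes, and 1 member had an unadjusted p under 0.05. Library 1 of flfl was highest for Rpl13a and Rplp0. It also had the most counts on muscle (6.08%), red blood cell (1.26%) and B cell genes (0.197%), and their part was not tested. Without it the median was 0.71, and without flfl library 2 edgeR called 4 members.

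The 2 MC903 control groups differed in the same direction. In flfl against isotype skin the median was 0.79, beside -0.10 over all genes, and in 49 members (55.7%) all flfl libraries were higher, beside 12% of all genes. In 1 member they were all lower, beside 20.5%. edgeR called no member higher (1.25% of all genes) and Rpl10l lower (3.97% of all genes), with 42 at an unadjusted p under 0.05, and DESeq2 called 28 higher and 1 lower, beside 6.96% and 11.2% of all genes. Without flfl library 1 the median was 0.13. The groups differ in Il4ra alleles, injections, age and experiment, which cannot be told apart. The 3 comparisons among isotype, flfl and untreated skin share their libraries, so they are not independent of one another.

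The paralogs did not move as a group. In MAR1 against isotype libraries, Rps27l, which is induced by p53, and Rpl7l1 were lower (log2 fold changes -1.28 and -1.13), Rpl10l was higher, and Rpl3l, Rpl22l1 and Rpl39l did not pass. Under RLE scaling the falls of Rps27l (-0.71) and Rpl7l1 (-0.56) no longer passed. Rps27l read 46.1, 49.3 and 31.0 CPM in MAR1 and 127, 80.8 and 98.4 CPM in isotype libraries. Outside MAR1 the 6 paralogs gave no call other than those of Rpl3l and Rpl10l in cKO and of Rpl10l in flfl against isotype.

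Other genes of the translation machinery were described in the same fits. Of 21 further mRNAs known to carry a TOP motif, none was higher and 10 were lower in MAR1 than in isotype libraries, with a median log2 fold change of -0.73. The shares over all genes were 22.6% higher and 26.5% lower. Among them were the elongation factor subunit Eef1g (-1.75) and the initiation factor subunits Eif3h (-2.11) and Eif3e (-1.91). Eef1g averaged 242 ± 49.5 CPM in MAR1 and 813 ± 10.4 CPM in isotype skin (SD, n = 3 each). In cKO against flfl skin 3 of the 21 were lower (Eif3h, Eef1g and Pabpc1, at -1.41, -0.99 and -1.27), beside 5.98% of all genes, with a median of -0.38. Under RLE scaling, 3 of the 21 were higher and 8 lower in MAR1 than in isotype libraries, with a median of -0.18. Scaled to the ribosomal protein total, no gene of the list passed in cKO against flfl skin and the median was 0.04.

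Of 30 ribosome biogenesis genes, 4 were higher and 18 lower in MAR1 than in isotype libraries, with a median of -1.24 (6 higher and 13 lower under RLE scaling, median -0.66). All genes were higher in 22.6% and lower in 26.5% of cases (30.3% and 17.4% under RLE scaling). Bop1 and Pes1, partners in large subunit processing, had log2 fold changes of -3.45 and -2.06, the rRNA transcription regulator Mybbp1a -5.16 and the nucleolar GTPase Gnl3 -2.58. In cKO against flfl skin, Bysl (-1.03), Tcof1 (-1.75) and Nol6 (-0.97) were lower, and none passed when scaled to the ribosomal protein total. These 3 of 30 stand beside 5.98% of all genes lower. In isotype against untreated skin 2 of the 30 rose, Rrp12, which acts in ribosomal subunit export (1.35, adjusted p = 0.049, edgeR), and Gnl3 (1.64, adjusted p = 0.0497, edgeR), with a median of 0.77. The share of all genes higher there was 1.35%. In flfl against untreated skin none passed, with a median of 0.70.

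A list of 15 genes held regulators of ribosomal protein synthesis and genes of the p53 response. Of these, 1 was higher and 11 lower in MAR1 than in isotype libraries (2 and 8 under RLE scaling). Among all genes 22.6% were higher and 26.5% lower (30.3% and 17.4% under RLE scaling). The kinase gene Mtor fell (-3.47), as did Eif4ebp1 (-3.37) and Eif4ebp2 (-2.42), whose proteins restrain cap-dependent translation, and the growth regulator Myc (-2.57). Eif4ebp1 averaged 13.0 ± 1.46 CPM in MAR1 and 134 ± 13.8 CPM in isotype skin (SD, n = 3 each). In cKO against flfl skin, Eif4ebp1 (-1.88), the S6 kinase gene Rps6kb2 (-1.65) and Myc (-1.28) were lower, beside 5.98% of all genes, with a median of -0.65 over the 15. Under RLE scaling 2 of the 15 were lower, and 1 was when scaled to the ribosomal protein total (median -0.31). None passed in either comparison with untreated skin, except that 1 was lower in flfl than in untreated skin when scaled to the ribosomal protein total. That scaling made 14.5% of all genes lower there.

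For scale, 4 other gene sets of the same libraries gave these counts in MAR1 against isotype skin, where 22.6% of all genes were higher and 26.5% lower. Mitochondrial ribosomal protein genes had 10 higher and 31 lower of 78 (median -0.43), with Mrpl48 at 905 ± 250 CPM in MAR1 and 79.9 ± 12.2 CPM in isotype skin and Mrps27 at 2.62 ± 0.209 and 32.5 ± 4.32 CPM (SD, n = 3 each). Proteasome genes had 6 higher and 19 lower of 39 (median -0.72). Nuclear genes of the respiratory chain had 13 higher and 18 lower of 80 (median 0.14). Mitochondrial mRNAs had 9 lower of 13 (median -2.30). Under RLE scaling the medians were 0.15, -0.15, 0.68 and -1.76 for these 4 sets in the same order, so the sign for mitochondrial ribosomal proteins turned. Genes of the mitochondrial ribosome, the proteasome and the respiratory chain were thus called in both directions too. In cKO against flfl skin the same sets had 1 higher and 4 lower, 1 higher and none lower, none higher and 7 lower, and none higher and 5 lower. The shares over all genes were 12.7% higher and 5.98% lower.

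A further 311 rows named as ribosomal protein pseudogenes lay outside the members. They took 0.104%, 0.158% and 0.168% of counts in MAR1 and 0.393%, 0.299% and 0.310% in isotype libraries. In cKO libraries they took 0.311%, 0.392% and 0.152%, in flfl 0.733%, 0.477% and 0.452%, and in untreated 0.387% and 0.313%. Since these rows are close copies of members, part of the members' reads may be counted there, but the shares are small beside the 6.20% to 16.5% on the members. The lowest 4 were again the MAR1 libraries and cKO library 3.

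The 2 contrasts themselves differed for 4 members. The cKO minus flfl effect was above the MAR1 minus isotype effect by 2.52 (log2) for Rps4l, 2.04 for Rpl15, 2.03 for Rpl4 and 2.02 for Rps7, the last named after its value was seen (interaction term, edgeR, adjusted p = 0.036 to 0.0495). These are 4 of 88 members, or 4.55%, beside 6.13% of all genes. No member had an effect below, where 1.82% of all genes did. None of the 4 passed under RLE scaling, scaling to the ribosomal protein total, or in a fit of the 4 groups alone. Of all genes, 2.09%, 0.043% and 3.08% then had an effect above. None of the 4 passed without any isotype library, MAR1 library 2 or 3, cKO library 1 or flfl library 2. Of all genes, 1 had an effect above without each isotype library, and 2 without MAR1 library 3. Where almost no gene was called, the loss is not particular to these members. DESeq2 called all 4, beside 9.56% of all genes with an effect above. Rps4l alone passed without cKO library 2, and Rpl15 was lost without MAR1 library 1. The smallest and largest differences with a library left out were 2.18 and 3.21 for Rps4l, 1.85 and 2.75 for Rpl15, 1.79 and 2.65 for Rpl4, and 1.81 and 2.69 for Rps7. Rpl15 stood at 615, 692 and 174 CPM in cKO and 1202, 746 and 1069 CPM in flfl libraries.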

How the data were processed

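RNA-seq of neck skin gave 14 libraries of 5 groups. Per the submitters' processing notes, Salmon 1.2.1 and DESeq2 1.44.0 were used, with genome build GRCm39, and no role is given for each. The values deposited by the authors are estimated counts per gene, not normalised. Strand use in counting is not given in the sources used here, so a gene and its antisense partner, and near-identical copies, cannot be told apart. Counts were rounded and fitted with edgeR 4.0.16 in R 4.3.3 (TMM scaling, filterByExpr, robust quasi-likelihood test), all 14 libraries together with 5 group means and 9 residual degrees of freedom. Of 35328 genes, 20940 were tested, and adjusted p is Benjamini-Hochberg over all of these. The standard error is the log2 fold change divided by the root of F. Summed shares and subunit ratios were compared by exact two-sided permutation tests over libraries. The labels do not say that each library is a separate mouse, so p-values measure the spread between libraries. Counting intervals were not used, since that spread is far larger.

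Alternatives were RLE scaling, scaling to the ribosomal protein total, DESeq2 1.42.0, no filter, a filter of 1 CPM in 3 libraries, fits of the compared groups only, a replicate block, a chemosensory receptor covariate, the untreated libraries summed, and each library left out. The fits were tested on simulated counts. Named members are, per comparison, up to 5 called in each direction by largest fold change (up to 3 for the interaction), the stalk genes, Rpsa, the paralogs, and those most and least variable in share; in other lists, the 4 of smallest p. Members and lists were chosen with earlier results of these data known. Promoter windows are from RefSeq on GRCm38.p6, and coding lengths from GENCODE M21. Protein sequences were not used here. A few named members and list genes are not reported here, although counts and medians include them.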

Additional observations from a re-analysis of the deposited data

Results flagged for a closer look

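The effect of the receptor deletion (cKO against flfl) and that of the antibody label (MAR1 against isotype) differed by the interaction term in edgeR for 4 members. The difference was 2.52 on the log2 scale for Rps4l (adjusted p = 0.036), 2.03 for Rpl4 (0.046), 2.04 for Rpl15 (0.049) and 2.02 for Rps7 (0.0495). Each of these members fell in MAR1 libraries and did not pass in cKO libraries. These calls depend on scaling and on single libraries, as given with the comparison.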

How the results depend on the processing

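Leaving out 1 library at a time, the summed share difference ran from -1.51 to 1.42 points in MAR1 minus isotype and from -1.57 to 1.65 in cKO minus flfl, and the MAR1 minus isotype difference became -0.637 without the 5 most abundant members. The log2 subunit ratio difference of isotype against untreated ran from -0.00481 to 0.0446 (median over members -0.0141), that of flfl against untreated from -0.0125 to 0.0523 (-0.019) and that of flfl against isotype from -0.0324 to 0.0281 (-0.00489). Members called in MAR1 against isotype were 0 with the receptor covariate, where no gene of any kind was called. Between cKO and flfl, where 7 were called, the number was 2 when scaled to the ribosomal protein total, 3 with the stricter filter, 1 with only the groups compared, 0 with the receptor covariate, 15 with DESeq2 and 1 to 9 with a library left out. In isotype against untreated 1 was called with only the groups compared and 1 with DESeq2, and in flfl against untreated 51 with DESeq2 and 0 to 4 with a library left out. In flfl against isotype it was 29 with DESeq2, 0 with the receptor covariate, and 0 to 1 with a library left out. For the interaction it was 1 with RLE, 0 when scaled to the ribosomal protein total, 7 with the stricter filter, 0 with only the groups compared, 13 with DESeq2 and 0 to 13 with a library left out. With the replicate block, 0 members were called in flfl against isotype and 0 for the interaction. Equal replicate numbers do not pair these libraries: their deviations correlated at -0.24 to 0.09. The median log2 fold change of members was -0.088 with RLE in MAR1 against isotype. Between cKO and flfl it was -0.13 with the stricter filter and -0.78 to 0.084 with a library left out, in isotype against untreated 0.55 and 0.20 to 0.69, and in flfl against isotype 0.13 to 0.99 with a library left out. Genes that changed sign had not passed a test, except Rpl10l in MAR1 against isotype with the receptor covariate (-1.16). With RLE and DESeq2, Rpl22l1 was at 0.065 and 0.066 in MAR1 against isotype. When scaled to the ribosomal protein total, cKO against flfl gave 0.054 for Rpl22l1, 0.18 for Rplp2 and 0.22 for Rpsa. Isotype against untreated then gave -0.037 for Rplp0, -0.20 for Rplp1 and -0.13 for Rplp2, flfl against untreated -0.73 for Rpl7l1, -0.52 for Rpl39l, -0.67 for Rps27l and -0.12 for Rplp1, and flfl against isotype -0.76 for Rpl7l1, -0.074 for Rpl22l1 and -0.058 for Rps27l. The stricter filter gave 0.026 for Rpl22l1, 0.21 for Rplp2 and 0.26 for Rpsa in cKO against flfl. The receptor covariate gave 0.32 for Rpl7l1 and -0.34 for Rplp1 in cKO against flfl, and -0.11 for Rplp1 and -0.23 for Rplp2 in isotype against untreated. Rpl7l1 was at -0.041 in flfl against untreated with the untreated libraries summed, and in flfl against isotype at -0.00166 with no filter, -0.36 with the stricter one, -0.016 with only the groups compared and -0.46 with the covariate. With a library left out, Rpl39l ran from -0.52 to 0.40 in MAR1 against isotype. Between cKO and flfl, Rpl7l1 ran from -0.50 to 0.091, Rpl22l1 from -0.63 to 0.30, Rps27l from -0.80 to 0.10, Rplp1 from -0.060 to 0.87, Rplp2 from -0.45 to 0.65 and Rpsa from -0.34 to 0.49. In isotype against untreated, Rpl3l ran from -2.92 to 0.12, Rps27l from -0.49 to 0.35, Rplp1 from -0.075 to 0.41 and Rplp2 from -0.0036 to 0.44. Rps27l ran from -0.031 to 0.65 in flfl against untreated and Rpl7l1 from -0.43 to 0.086 in flfl against isotype. Of the remaining values of single genes, 740 kept direction and call, 131 lost a call and 13 gained one. The cause of these changes was not tested. With 2 or 3 libraries a group the exact tests cannot go below 0.1.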
